A study of Mus musculus with 48 samples.

Results

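The 10 transcripts described here encode 6 annexins (Anxa1, Anxa2, Anxa3, Anxa4, Anxa5 and Anxa7) and 4 S100A proteins (S100a4, S100a6, S100a10 and S100a11). They were taken by name from the count table, which lists 55357 genes, and all 10 passed the filter on low counts that left 21390 genes for testing. RNA was sequenced from the dorsal dentate gyrus of 24 wild-type C57BL/6J mice, 4 in each combination of injection (kainate or saline, given into the hippocampus of 1 side) and day of collection (3, 7 or 14). Both sides of each mouse were sequenced, giving 48 libraries in 12 groups of 4. The injected side is called the epileptogenic zone (EZ) and the opposite side the peri-ictal zone (PIZ). The mice were 6 to 8 weeks old by the design text of the series (the methods give an older range), and each group held 2 males and 2 females by the methods. No animals were pooled, and the controls had the same injection with saline. Kainate, a glutamate receptor agonist, induces status epilepticus.

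Annexins are cytoplasmic proteins that bind negatively charged membrane lipids when calcium rises, and they take part in membrane repair, vesicle traffic and the ending of inflammation. S100 proteins are small EF-hand calcium sensors that mostly work by binding a target protein, and several of them bind a particular annexin, as S100A10 does annexin A2 and S100A11 does annexin A1. In the brain, many of these proteins are known from glia, from vessels and from blood-derived cells more than from granule neurons.

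The 4 S100A genes lie on chromosome 3, with S100a4 (90511074 to 90513354) and S100a6 (90520140 to 90535843) close together in a cluster of S100 genes, and S100a11 (93414382 to 93435293) next to S100a10 (93462213 to 93474510) further along (GRCm39, Gencode M39). The annexins are dispersed. Anxa1 lies on chromosome 19 (20350792 to 20368374), Anxa2 on chromosome 9 (69360542 to 69399077), Anxa3 on chromosome 5 (96940544 to 96993828) and Anxa4 on chromosome 6 (86713675 to 86771064). Anxa5 is on chromosome 3 as well (36503072 to 36530126), far from the S100 genes, and Anxa7 is on chromosome 14 (20505328 to 20530201).

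RefSeq promoters on GRCm38.p6 were matched for 8 of the 10 genes, with none for Anxa3 and S100a10. The 150 bases just before the start are shown for 5 genes with large changes (Anxa1, Anxa2, S100a4, S100a6 and S100a11) and for Anxa7, whose transcript was not called in any comparison, so that the motifs beside them can be seen. Letters in capitals are matches on either strand to TGANTCA (the AP-1 motif) or to TATAAA (the TATA box).
Anxa1 (chr19:20390672-20390821, minus strand): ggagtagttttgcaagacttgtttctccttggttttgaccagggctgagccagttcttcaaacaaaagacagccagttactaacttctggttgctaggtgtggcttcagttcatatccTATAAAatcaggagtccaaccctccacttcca
Anxa2 (chr9:69453533-69453682, plus strand): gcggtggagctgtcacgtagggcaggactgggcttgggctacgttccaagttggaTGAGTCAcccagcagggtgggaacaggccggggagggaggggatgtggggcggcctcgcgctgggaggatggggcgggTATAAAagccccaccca
S100a4 (chr3:90603620-90603769, plus strand): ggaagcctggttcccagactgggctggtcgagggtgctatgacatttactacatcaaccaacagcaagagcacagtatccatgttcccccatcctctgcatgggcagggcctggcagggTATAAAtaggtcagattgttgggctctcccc
S100a6 (chr3:90612744-90612893, plus strand): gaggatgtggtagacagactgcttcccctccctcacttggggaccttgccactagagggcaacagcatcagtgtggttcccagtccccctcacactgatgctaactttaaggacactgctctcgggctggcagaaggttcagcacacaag
S100a11 (chr3:93520346-93520495, plus strand): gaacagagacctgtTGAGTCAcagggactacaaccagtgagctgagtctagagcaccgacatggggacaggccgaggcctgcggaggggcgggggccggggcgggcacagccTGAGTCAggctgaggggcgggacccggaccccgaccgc
Anxa7 (chr14:20479942-20480091, minus strand): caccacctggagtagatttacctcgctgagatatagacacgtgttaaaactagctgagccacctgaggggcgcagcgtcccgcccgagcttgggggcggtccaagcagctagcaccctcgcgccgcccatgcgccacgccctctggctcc

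The AP-1 motif was found in the 250 bases before the start of 2 of the 8 genes, once in Anxa2 (95 bases before the start) and at a pair of places in S100a11 (136 and 38 bases before it). Of all 32851 promoters in the table, 6.75% held it in the same window. The TATA box was found in 3 genes, at 32 bases before the start of Anxa1, 31 before that of S100a4 and 17 before that of Anxa2, against 12.4% of all promoters. GGGCGG (the GC box) was found in Anxa2, S100a11 and Anxa7, against 32.7% of all promoters, and none of the 8 held TTCNNNGAA (a STAT motif), against 7.02%. S100a6 held none of the 4 motifs. The matches did not overlap one another, and they describe letters in these windows only (for Anxa4 and Anxa7, which have a second listed start, those of both).

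Levels are given as CPM (counts scaled to the TMM-adjusted library total) and, where genes are compared, as CPM per kilobase of the canonical transcript. In the 24 saline libraries Anxa7 was the most abundant per kilobase, with a median of 22.4 (18.7 to 33), followed by Anxa5 with 15.2 (11.3 to 23.5). S100a6 (median 7.36), Anxa3 (6.15), Anxa2 (3.76), S100a4 (2.74), S100a10 (2.18) and Anxa4 (1.62) came next, then S100a11 with 0.832 (0.614 to 3.06), and up to there the ranges of any 2 neighbours in this order overlapped. Anxa1 was the scarcest with 0.176 (0.0524 to 0.46), below every saline value of S100a11, and its 2 to 17 counts per saline library make its values the least precise of the 10. These ranges span both sides and all days, and in the saline EZ at day 3 the mean of S100a6 (24.5) was above that of Anxa7 (22.7). The order in the kainate mice depended on side and day. S100a6 had the highest mean of the 10 in the EZ at days 3 and 7 (117 and 97.6) and in the PIZ at day 3 (92.1), whereas Anxa7 had it in the PIZ at days 7 and 14 (23.4 and 22.8). S100a10 and S100a11 have long canonical transcripts, and where reads fall along a transcript was not examined, so their per-kilobase levels are approximate. Anxa1 to Anxa5 each overlap an annotated gene on the opposite strand, and the libraries were stranded and counted by strand.

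Kainate was compared with saline on each side and day with edgeR's quasi-likelihood test over all 48 libraries. A gene was called when its Benjamini-Hochberg adjusted p was under 0.01 and its fold change over 1.5. In the EZ at day 3, 9 of the 10 transcripts were called and all 9 were higher in kainate, where 24.7% of the 21390 genes were called in either direction and 16.1% were called higher. The median log2 fold change was 1.98 over the 10 and 0.03 over all genes tested. The 9 called transcripts had no overlap between the 4 kainate and the 4 saline mice, which was so in this direction for 23.9% of all genes. Anxa7 was not called.

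Anxa2, the annexin that pairs with S100A10 and binds plasminogen activators at the cell surface, had 5.03, 8.16, 9.79 and 13.1 CPM in the saline EZ at day 3. In the kainate EZ it had 60.5, 70.4, 108 and 159.7 CPM. The lowest kainate mouse was far above the highest saline mouse, and the log2 change was 3.47 (SE 0.51, adjusted p = 1.49e-06). Anxa1, a ligand of formyl peptide receptors with anti-inflammatory activity, had 0.225, 0.292, 0.309 and 0.369 CPM in saline and 1.18, 1.65, 5.62 and 7.88 CPM in kainate. Kainate mice 38 and 42 stood well above kainate mice 30 and 44. The log2 estimate for Anxa1, 3.75 (SE 0.61, adjusted p = 6.13e-06), was the largest estimate of the 10 on this side and day, and it rests on 5 to 8 counts per saline library.

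S100a11, the usual partner of annexin A1, had 3.22, 3.64, 6.04 and 7.11 CPM in saline and 26.9, 27.6, 38.9 and 59.9 CPM in kainate, at 2.94 on the log2 scale (SE 0.45, adjusted p = 2.46e-06). S100a10, also called p11, had 8.65, 12.8, 15.1 and 25.0 CPM in saline and 49.1, 57.6, 59.5 and 80.8 CPM in kainate, at 2.01 (SE 0.32, adjusted p = 3.91e-06). Saline mouse 29 was the highest saline mouse for both. S100a6 (calcyclin) rose by 2.25 (SE 0.39) and S100a4, which binds non-muscle myosin, rose by 1.95 (SE 0.55, adjusted p = 0.00331) on the log2 scale. The call of S100a4 was lost without saline mouse 37 or 18 (adjusted p = 0.0149 and 0.0197). Anxa3, Anxa4 and Anxa5, the last a phosphatidylserine binder used as a probe of dying cells, rose together by 1.80 (SE 0.37), 1.82 (SE 0.34) and 1.78 (SE 0.27).

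Anxa7 (synexin), an annexin of membrane fusion, had 60.0, 63.1, 64.6 and 71.0 CPM in the saline EZ at day 3 and 47.1, 50.6, 51.2 and 60.3 CPM in the kainate EZ. The groups overlapped only at the lowest saline and the highest kainate mouse, and the log2 estimate was -0.31 (SE 0.16, adjusted p = 0.108). Over all 48 libraries it stayed between 41.2 and 96.8 CPM, and its log2 fold change lay between -0.31 and 0.01 in the 6 comparisons of kainate with saline.

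**Figure D1:**
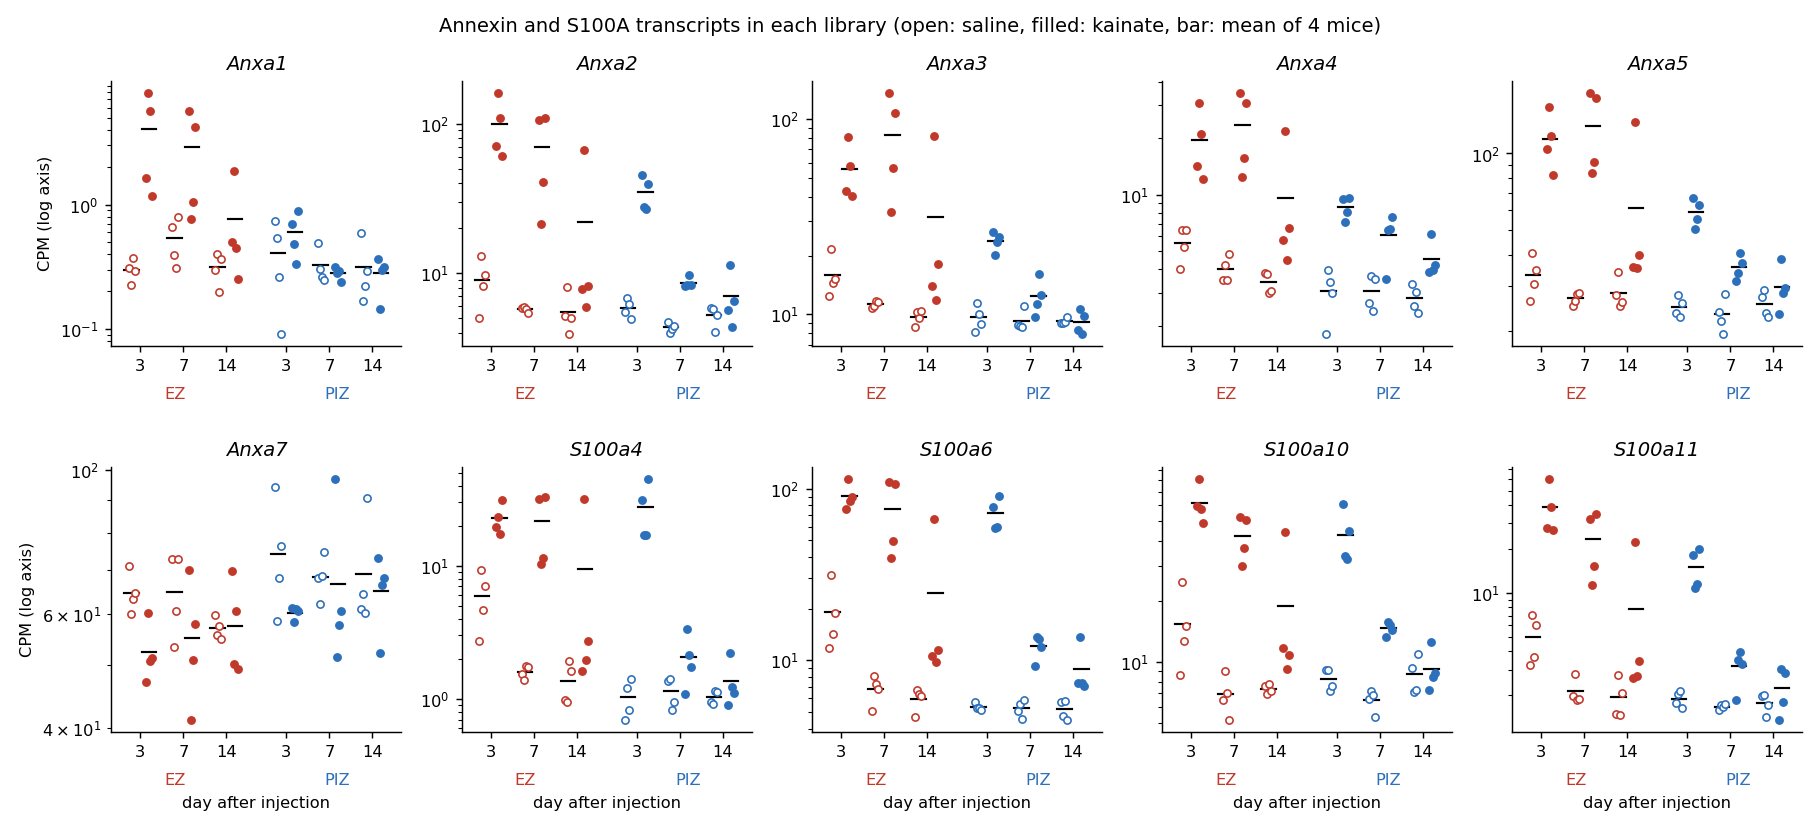
Each panel plots 1 transcript as CPM on a log axis (its range differs between panels) against day, for the EZ (red) and the PIZ (blue), with open points for saline mice, filled points for kainate mice and a bar at the mean of 4. The kainate points lie above all saline points for 9 transcripts in the EZ at day 3 and for 8 in the PIZ at day 3, and in the EZ at day 14 a single kainate mouse (27) stands above the rest except for Anxa7.

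Bulk RNA cannot tell fewer or more cells of a type from less or more RNA per cell. The tissue held its expected markers, with Prox1, a transcription factor of granule neurons, at a mean of 247 CPM over the 48 libraries, and little choroid plexus (Ttr, mean 0.836 CPM). Markers of other cells moved with the 9 transcripts. In the EZ at day 3, 7 of the 10 microglia markers were called higher, and their summed level was 633 to 1089 CPM in saline and 1814 to 3235 CPM in kainate. Of the 10 markers of infiltrating leukocytes 8 were tested and 6 were called higher, with a summed level of 23 to 45.97 CPM in saline and 115 to 867 CPM in kainate. Among its T cell genes, Cd3e and Cd3g were at 0 in 17 and 21 of the 48 libraries and Trac (mean 0.513 CPM) in 0. The list's highest mean over the 48 libraries was that of Lyz2 (122.6 CPM), which microglia also express, followed by Ly6c2 (8.86 CPM), and the leukocyte sums here and below include both. The 7 neutrophil markers together never passed 0.907 CPM in any library, and none had enough counts to be tested. Of the 10 markers of reactive astrocytes 8 were called higher, from 1550 to 3909 CPM in saline to 7872 to 8508 CPM in kainate. Of other cells, 4 of 8 endothelial markers (Cldn5, Pecam1, Cdh5 and Emcn) and 5 of 8 markers of meninges and fibroblasts (Dcn, Lum, Col1a1, Col1a2 and Col3a1) were called higher. The endothelial sum was 245 to 271 CPM in saline and 296 to 466 CPM in kainate, and the meningeal sum 57.5 to 98.4 and 95.4 to 402 CPM. Other sums were lower in all 4 kainate mice than in all saline mice. Neuron markers summed to 5176 to 6284 CPM in saline and 2376 to 4221 CPM in kainate. Granule cell markers had 1086 to 1332 and 730.8 to 1049 CPM, and homeostatic astrocyte markers 5610 to 6546 and 3983 to 5038 CPM. The granule cell genes of highest mean CPM, Prox1 (log2 change -0.12, SE 0.26) and Stxbp6 (-0.71, SE 0.34), were not called. Of the homeostatic astrocyte genes, Slc1a2 (mean 3249 CPM) was called lower (-0.95, SE 0.14) and Slc1a3 was not called (0.27, SE 0.12). The part of these cells in the changes was not tested.

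At day 7 in the EZ the same count, 9 of 10, was called higher, with 32.5% of all genes called in either direction and 20.6% called higher. The median over the 10 was 2.74, against 0.01 over all genes. S100a4 had 1.39, 1.53, 1.74 and 1.75 CPM in saline and 10.3, 11.3, 31.5 and 33.02 CPM in kainate, a log2 rise of 3.75 (SE 0.61, adjusted p = 3.2e-06). Kainate mice 21 and 35 stood well above mice 23 and 26, and all 4 were above the saline mice. The same split was seen for Anxa2, with 21.5 and 40.9 CPM in mice 23 and 26 and 106 and 109 CPM in mice 21 and 35, against 5.41 to 5.95 CPM in saline. On the log2 scale Anxa2 rose by 3.59 (SE 0.52, adjusted p = 4.4e-07).

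For 8 transcripts all kainate mice were above all saline mice, as for 23.7% of all genes. For Anxa1 the lowest kainate mouse (0.765 CPM) fell below the highest saline mouse (0.800 CPM). Anxa1 rose by 2.43 on the log2 scale (SE 0.57, adjusted p = 0.000412), and the call was lost when only the 2 compared groups were modelled (adjusted p = 0.0212). The other called transcripts rose by 3.48 (S100a6, SE 0.41), 3.44 (S100a11, SE 0.47), 2.88 (Anxa3, SE 0.38), 2.60 (S100a10, SE 0.33), 2.54 (Anxa4, SE 0.36) and 2.26 (Anxa5, SE 0.27) on the log2 scale, and Anxa7 was at -0.24 (SE 0.16). No member's kainate effect differed between day 7 and day 3 in the EZ past the threshold (0 of 10 by edgeR or DESeq2, with 0.145% of all genes called). The estimates of that difference ran from -1.32 for Anxa1 (SE 0.84) to 1.79 for S100a4 (SE 0.79).

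Mice 21 and 35 also differed from mice 23 and 26 in the marker transcripts. Their summed leukocyte markers were 1532 and 1342 CPM, against 147 and 217 CPM in mice 23 and 26 and at most 28.95 CPM in saline. Their microglia markers were 8498 and 6104 CPM, against 2255 and 3195 CPM. Their neuron markers were lower, at 1644 and 1827 CPM against 4101 and 3730 CPM, as were their granule cell markers, at 366.7 and 540.8 against 1183 and 1138 CPM. Their meningeal and fibroblast markers were 515.9 and 359 CPM against 63.9 and 83.6 CPM. Reactive astrocyte markers were 9760 and 9633 CPM in mice 21 and 35 and 6657 and 6346 CPM in mice 23 and 26, against 567 to 912 CPM in saline. Whether these cells carried the S100 and annexin transcripts was not tested.

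**Figure D2:**
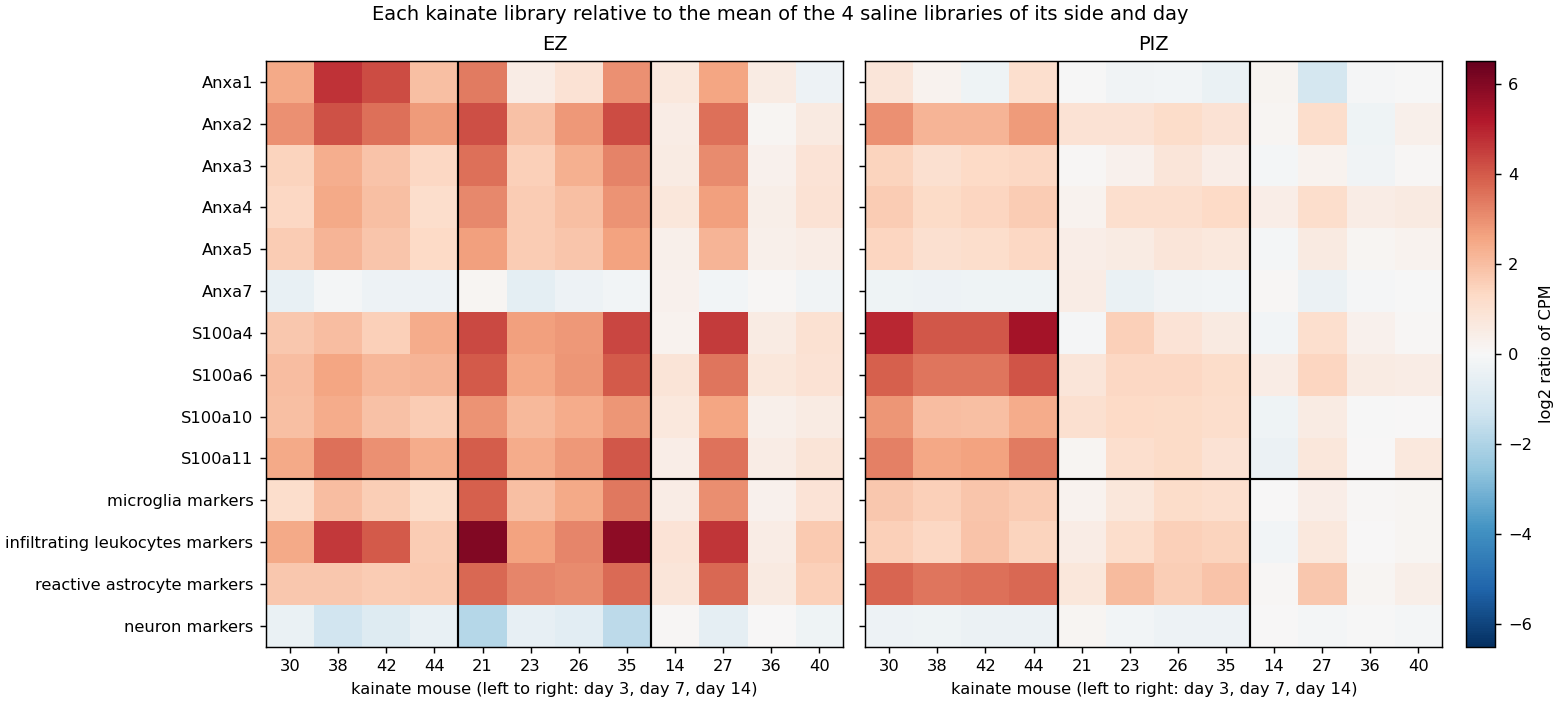
Each cell is the log2 ratio of CPM in 1 kainate library to the mean of the 4 saline libraries of its side and day, for the 10 transcripts (upper rows) and the summed markers of 4 cell types (lower rows). Mice 21 and 35 at day 7 and mouse 27 at day 14 are the darkest EZ columns of their days for most transcripts and for the leukocyte markers.

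At day 14 in the EZ, 7 of the 10 were called higher, where 2.36% of all genes were called in either direction and 2.32% called higher. The median over the 10 was 1.6, against 0.00 over all genes. That count changed when single mice were left out. S100a6 had 9.84, 10.6 and 11.6 CPM in 3 kainate mice and 66.9 CPM in kainate mouse 27, against 4.65 to 6.69 CPM in saline, a log2 difference of 2.05 (SE 0.40, adjusted p = 0.00171). Without mouse 27 it was 0.83 (adjusted p = 0.468). S100a4 had 1.61, 1.97 and 2.71 CPM in 3 mice and 31.5 CPM in mouse 27, against 0.949 to 1.92 CPM in saline, and its estimate fell from 2.78 (SE 0.61) to 0.62 without that mouse. Without mouse 27 no member was called (0 of 10). No member was called either without saline mouse 24, 39 or 31 or when only the 2 compared groups were modelled, and 1 was called without saline mouse 28. In these fits the estimates stayed about as large (S100a4 2.64 to 2.98) and the adjusted p rose. It was the same, 0.56, for all 7 when only the 2 groups were modelled. The shares of all genes called in the fits with fewer mice or groups are not reported here.

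The remaining called estimates at day 14 were 1.99 for S100a11 (SE 0.47), 1.70 for Anxa3 (SE 0.37), 1.5 for Anxa4 (SE 0.35), 1.36 for S100a10 (SE 0.32) and 1.11 for Anxa5 (SE 0.27). Anxa2 missed the threshold at 2.00 (SE 0.50, adjusted p = 0.0106) but was called by DESeq2 (adjusted p = 0.00095), with RLE factors (0.00986), without a filter (0.00851) and with a mean of at least 10 counts (0.00972). It had 66.6 CPM in mouse 27 and 5.96, 7.81 and 8.23 CPM in the other kainate mice. Anxa1 was at 1.28 (SE 0.66) and Anxa7 at 0.01 (SE 0.16). For Anxa3, Anxa4, Anxa5, S100a6 and S100a10, all 4 kainate mice, and not mouse 27 alone, lay above all 4 saline mice, as was so for 4.58% of all genes. Without mouse 27 the log2 estimates of these 5 were 0.60, 0.72, 0.39, 0.83 and 0.53, none called. The EZ of mouse 27 held 4130 CPM of microglia markers and 8040 CPM of reactive astrocyte markers. The other 3 held 617.7 to 951.9 and 893.7 to 1785 CPM, and saline mice 490.1 to 529.1 and 531.9 to 651.3 CPM. Leukocyte markers summed to 507.5 CPM in mouse 27, 27.9 to 65.5 CPM in the other 3 and 16.7 to 24.3 CPM in saline. All 4 kainate mice were thus above all saline mice in these sums as well, and the part of these cells was not tested.

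In the PIZ, the side without an injection, 8 of the 10 were called higher at day 3, where 8.69% of all genes were called in either direction and 7.12% called higher. The median over the 10 was 1.93, against 0.02 over all genes. The 8 had no overlap between kainate and saline mice, which was so in this direction for 17.1% of all genes. S100a4 had 0.696, 0.823, 1.22 and 1.41 CPM in saline and 17.01, 17.1, 31.01 and 44.8 CPM in kainate. The log2 estimate for S100a4, 4.72 (SE 0.64, adjusted p = 2.94e-06), was the largest of the 10 in any of the 6 comparisons. S100a6 had 5.15 to 5.71 CPM in saline and 59, 59.97, 77.99 and 90.4 CPM in kainate, at 3.75 (SE 0.42, adjusted p = 9.5e-08). For both genes the lowest kainate mouse was far above the highest saline mouse.

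S100a11 (2.99, SE 0.47), Anxa2 (2.57, SE 0.50) and S100a10 (2.37, SE 0.32) also rose in the PIZ at day 3, as did Anxa4 (1.48, SE 0.35), Anxa3 (1.30, SE 0.37) and Anxa5 (1.24, SE 0.27), all on the log2 scale. Anxa3 was close to the threshold (adjusted p = 0.00934), and its call was lost without any 1 of the 8 mice. That of Anxa4 was lost without saline mouse 18 (adjusted p = 0.0157), so that 6 or 7 were called when 1 mouse was left out. Anxa1 had 0.334, 0.485, 0.696 and 0.879 CPM in kainate and 0.0911, 0.260, 0.535 and 0.743 CPM in saline. The groups overlapped, and the log2 estimate for Anxa1 was 0.57 (SE 0.64, adjusted p = 0.556). Anxa7 was at -0.30 (SE 0.16).

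In the PIZ at day 3, all 10 microglia markers were called higher (369 to 503 CPM summed in saline, 1263 to 1532 in kainate), as were 7 of 10 reactive astrocyte markers (377 to 537 CPM in saline, 5187 to 6385 in kainate). Of the leukocyte markers 1 of 8 tested was called, Lyz2, and their sum was 12.95 to 20.9 CPM in saline and 45.9 to 65.1 CPM in kainate. No endothelial marker of 8 was called. Neuron markers summed to 5461 to 7096 CPM in saline and 4828 to 5216 CPM in kainate, without overlap. Of these, Snap25 (-0.56 on the log2 scale, SE 0.21) and Map2 (-0.24, SE 0.18) were not called. The part of these cells in the changes was not tested.

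At day 7 in the PIZ no transcript was called (0 of 10, with 0.201% of all genes called), and at an unadjusted p under 0.05 there were 3104 genes of 21390. S100a6 had 9.23, 12, 13.4 and 13.6 CPM in kainate and 4.57 to 5.84 CPM in saline, at a log2 difference of 1.19 (SE 0.41, adjusted p = 0.135). S100a10 had 13.4, 14.5, 15.3 and 15.8 CPM in kainate and 5.35 to 7.20 CPM in saline, at 1.18 (SE 0.32, adjusted p = 0.0517). Anxa2 had 8.24 to 9.78 CPM in kainate and 3.98 to 4.71 CPM in saline, at 1.0 (SE 0.51, adjusted p = 0.362). The groups of these 3 genes, and of Anxa5 and S100a11, did not overlap, which was so in this direction for 7.63% of all genes. Of the 3, each was called when only the 2 compared groups were modelled (adjusted p = 0.00419, 0.00272 and 0.00419). Marker sums were also apart, with microglia at 523 to 1026 CPM in kainate and 394 to 497 in saline, reactive astrocytes at 757 to 1844 and 402 to 476, and leukocytes at 21.1 to 43.96 and 11.4 to 18.7, and their part was not tested.

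At day 14 in the PIZ, again, none was called (0 of 10, with 0.014% of all genes called). S100a6 had 7.14, 7.34, 7.43 and 13.8 CPM in kainate, the last in mouse 27, and 4.50 to 5.78 CPM in saline. The estimate was 0.78 on the log2 scale (SE 0.41, adjusted p = 0.863). The groups of S100a6 and Anxa4 did not overlap, as for 3.7% of all genes. DESeq2 also called 0 of the 10 at both days.

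**Figure D3:**
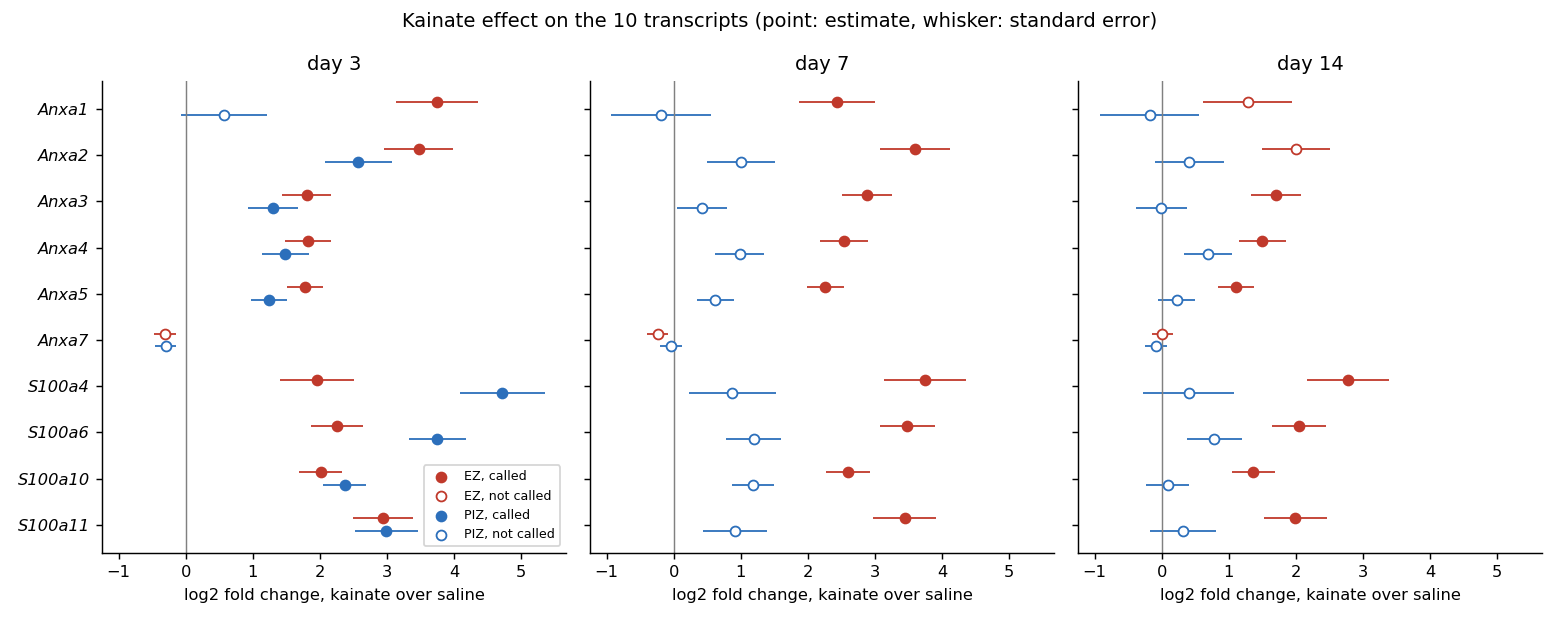
The log2 fold change of kainate over saline (horizontal axis) is plotted for each transcript at days 3, 7 and 14 in the EZ (red) and the PIZ (blue), with whiskers of 1 standard error and filled points for called transcripts. S100a4 and S100a6 are farther right in the PIZ than in the EZ at day 3, and at day 7 the EZ points of all but Anxa7 lie to the right of the PIZ points.

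To ask whether the sides responded differently, the kainate effect in the EZ was compared with that in the PIZ. At day 3 no member was called (0 of 10, with 0.0655% of all genes called), by edgeR or by DESeq2. The estimates pointed in both directions. That of Anxa1 was 3.18 (SE 0.90, adjusted p = 0.0706), higher in the EZ, whereas that of S100a4 was -2.77 (SE 0.81, adjusted p = 0.0791) and that of S100a6 was -1.49 (SE 0.54, adjusted p = 0.147), both lower in the EZ. Unadjusted p over all genes was under 0.05 for 3828 of them.

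The levels behind the estimates of S100a4 and S100a6 were as follows. S100a4 had 2.74, 4.66, 7.01 and 9.23 CPM in the saline EZ at day 3, above all 4 values of the saline PIZ, and S100a6 had 11.8, 14.2, 18.9 and 31.4 CPM. In the kainate mice of that day the ranges of the sides overlapped, with 17.4 to 31.2 CPM of S100a4 in the EZ and 17.01 to 44.8 in the PIZ, and 75.9 to 113.9 CPM of S100a6 in the EZ and 59 to 90.4 in the PIZ. Tested directly, the saline EZ exceeded the saline PIZ at day 3 by 2.51 for S100a4 (SE 0.63, adjusted p = 0.233), by 1.83 for S100a6 (SE 0.40, adjusted p = 0.08) and by 1.40 for S100a11 (SE 0.47, adjusted p = 0.489) on the log2 scale, none called (0 of 10, with 0.0281% of all genes called). DESeq2 called S100a4 and S100a6 (adjusted p = 0.00854 and 0.00234).

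By day 14 the saline EZ held 0.949 to 1.92 CPM of S100a4 and 4.65 to 6.69 CPM of S100a6. In a comparison added after these values were seen, the saline EZ at day 3 was above that at day 14 by 2.10 for S100a4 (SE 0.61, adjusted p = 0.342) and 1.67 for S100a6 (SE 0.40, adjusted p = 0.223), and 0 of 10 were called (0% of all genes). The summed markers of reactive astrocytes were 1550 to 3909 CPM in the saline EZ at day 3, against 377 to 537 CPM in the saline PIZ, and those of microglia were 633 to 1089 against 369 to 503 CPM. Side and injection cannot be told apart in these mice, since each was injected on that side alone.

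Kainate mice alone, compared between sides at day 3 in a second added comparison, gave 3 called transcripts, where 8.14% of all genes were called. Anxa1 was higher in the EZ by 2.75 (SE 0.55, adjusted p = 0.000662), Anxa4 by 1.19 (SE 0.34, adjusted p = 0.00914) and Anxa5 by 0.95 (SE 0.26, adjusted p = 0.00803). S100a4 was at -0.26 (SE 0.52) and S100a6 at 0.34 (SE 0.37), not called. The 3 calls were lost when only the 2 groups were modelled and without kainate mouse 38 or 42, 1 was left without mouse 30, and 5 were made with mouse as a block or by DESeq2.

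At day 7 the kainate effect was called larger in the EZ than in the PIZ for 5 transcripts, where 9.89% of all genes were called. The differences were 2.59 for Anxa2 (SE 0.71, adjusted p = 0.00787), 2.53 for S100a11 (SE 0.67, adjusted p = 0.00639), 2.46 for Anxa3 (SE 0.52, adjusted p = 0.00223), 2.28 for S100a6 (SE 0.56, adjusted p = 0.00451) and 1.64 for Anxa5 (SE 0.38, adjusted p = 0.00325). S100a4 (2.88, SE 0.89, adjusted p = 0.0159), Anxa4 (1.56, SE 0.50, adjusted p = 0.0186) and S100a10 (1.42, SE 0.45, adjusted p = 0.0191) missed the threshold. Anxa1 was at 2.62 (SE 0.95, adjusted p = 0.0366), also not called. With mouse as a block, 7 were called. None was called (0 of 10) without kainate mouse 21 or 35 or without saline mouse 89 or 20, and 2 were called without saline mouse 33 or 34. The differences stayed near their size in these fits (Anxa2 2.28 to 2.65, Anxa3 2.02 to 2.52, S100a11 2.16 to 2.68). At day 14 none was called (0 of 10, with 0% of all genes).

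Over time in the PIZ, the effect at day 7 minus that at day 3 was -3.86 for S100a4 (SE 0.91, adjusted p = 0.0672) and -2.55 for S100a6 (SE 0.57, adjusted p = 0.0613) on the log2 scale, neither called (0 of 10, with 0.0234% of all genes called). The 2 genes were called by DESeq2 (adjusted p = 0.00276 and 0.00389), and 4 were called when only the compared groups were modelled. In the EZ no member's effect was called different between day 14 and day 7 (0 of 10, with 0.271% of all genes called). The estimates at day 14 minus day 7 were -0.96 to -1.59 for all but Anxa7 (0.25), the lowest adjusted p being 0.0362 for Anxa5 (-1.15, SE 0.37). Without kainate mouse 27, 8 were called. The share of all genes called in the fit without that mouse is not reported here, and the 0.271% belongs to the fit with it.

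The ratio of Anxa2 to S100a10, whose proteins form a complex, was apart between kainate and saline mice in the EZ at day 3 only. In the saline EZ at day 3 the ratio of Anxa2 to S100a10 in CPM was 0.523 to 0.648, and in the kainate EZ it was 1.18 to 1.98, without overlap. In the PIZ at day 3 the ratio was 0.602 to 0.867 in saline and 0.743 to 0.880 in kainate, with overlap. At day 7 in the EZ it was 0.656 to 1.05 in saline and 0.720 to 2.15 in kainate, with overlap. The ranges also overlapped in the EZ at day 14 and in the PIZ at days 7 and 14. This ratio was looked at after the values of both genes were known and was not tested.

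After the group means were removed, the members still moved together from library to library. Over the 48 libraries, from 24 mice, the correlation of log2 CPM was highest between Anxa2 and Anxa5 (Pearson r = 0.940) and between Anxa2 and Anxa3 (r = 0.933), and between S100a4 and S100a6 it was 0.892. Anxa1 had its highest value with Anxa2 (r = 0.656). Anxa7 stood apart, with values from -0.237 (with S100a4) to 0.351 (with Anxa1). These are descriptions: the libraries share mice, and mice 21, 35 and 27 stand out in most of these genes.

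By the same measure the nearest other genes were Msn (r = 0.949) and Arpc1b (0.947), of the cortical actin cytoskeleton, for Anxa2. For Anxa3, Ehd4 was among the nearest (0.972). For Anxa5 they were the lysosomal genes Ctsl and Cd63 (both 0.950), and for Anxa4 Cyba (0.921) and Myo1f (0.920). For S100a6 they were Cnn3 (0.944) and Vim (0.937), the latter the intermediate filament of reactive glia, which was also second for S100a11 (0.936) after Ctsh (0.936). For S100a10 they were the oncostatin M receptor Osmr (0.912) and S1pr3 (0.907). For Anxa1 they were Abcb1b (0.815) and Mcoln2 (0.812), and for Anxa7 Osbpl1a (0.885) and Arhgef6 (0.874). The nearest for S100a4 was Gm42674 (0.971), a gene that overlaps an exon of S100a4 on the same strand, so reads between them may not be separable. Its highest count in a library was 453, against 1120 for S100a4. Hspb6 came second (0.873).

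Along chromosome 3, 14 S100 genes of the lists were found, 11 had enough counts to be tested, and 8 of these were called higher on each side at day 3, where 16.1% of all genes were called higher in the EZ and 7.12% in the PIZ. On each side the 8 include the members S100a4, S100a6, S100a10 and S100a11, already reported above. In the EZ the others were S100a16 (1.47, SE 0.20), S100a3 (2.04, SE 0.46), S100a13 (0.86, SE 0.18) and S100a7a (1.99, SE 0.47). In the PIZ S100a1 (0.93, SE 0.18) was called and S100a7a was not (1.49, SE 0.48, adjusted p = 0.021). S100a8 and S100a9, neighbours of this cluster that are abundant in neutrophils, were not called on either side, at 1.62 (SE 0.75) and 1.84 (SE 0.86) in the EZ, with at most 2.28 CPM in any library of day 3. S100b, the astrocyte gene on another chromosome, was at -0.01 (SE 0.13) in the EZ at day 3 and rose by 0.79 (SE 0.13, adjusted p = 4.3e-06) at day 7.

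**Figure D4:**
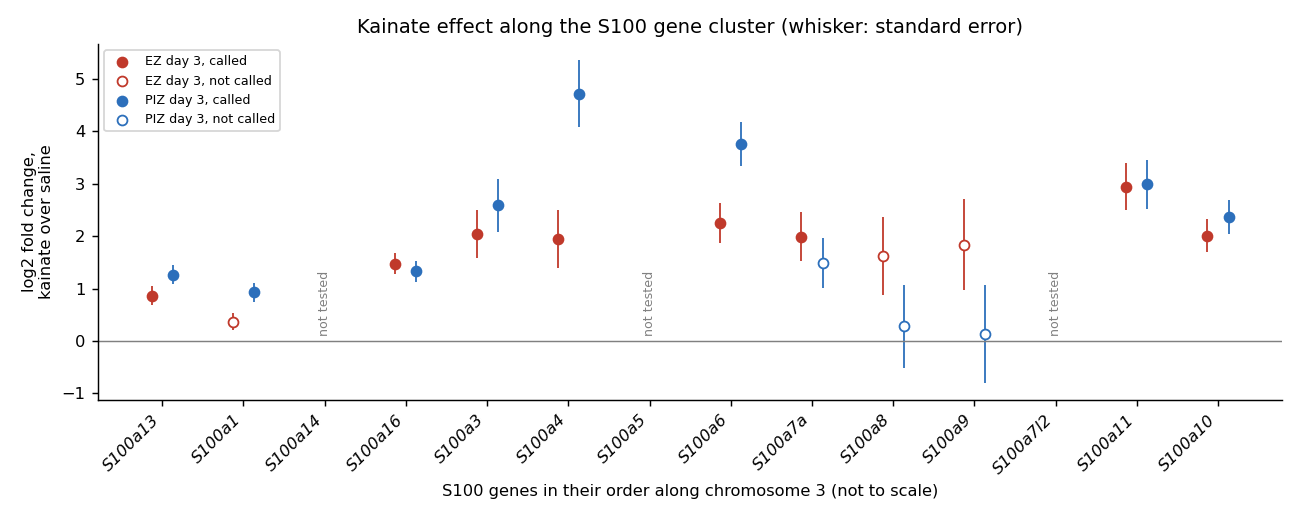
The log2 fold change of kainate over saline at day 3 is plotted for the S100 genes of chromosome 3 in their order along it (spacing not to scale), in the EZ (red) and the PIZ (blue), with whiskers of 1 standard error and filled points for called genes. S100a4 and S100a6 in the PIZ are the highest points at 4.72 and 3.75, and the points of S100a8 and S100a9 are open.

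Of the 3 other annexins tested, 1 was called in the EZ at day 3, where 16.1% of all genes were called higher. Anxa6 was at 0.14 (SE 0.11) and Anxa11 at 0.56 (SE 0.27) in the EZ at day 3, not called. The called gene was Anxa9 at 1.05 (SE 0.29, adjusted p = 0.00285), and 0 were called in the PIZ. Anxa8, Anxa10 and Anxa13 were below the filter.

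The plasminogen system, whose activators annexin A2 and S100A10 hold at the cell surface, had 6 of 8 tested genes called higher and 1 lower in the EZ at day 3, and 4 higher in the PIZ. Of all genes, 16.1% were called higher in the EZ and 7.12% in the PIZ on that day. Plaur, the urokinase receptor, rose by 3.66 (SE 0.52, adjusted p = 9.41e-07) in the EZ and by 2.73 (SE 0.63) in the PIZ. Serpinf2 (4.03, SE 0.69) and Plat (0.70, SE 0.19) were also called higher in the PIZ. Serpine2, a protease inhibitor, rose by 0.92 (SE 0.22) in the EZ. Serpini1, the neuronal inhibitor of tissue plasminogen activator, fell by 2.09 (SE 0.27) on the log2 scale in the EZ. The precursor gene Plg had at most 5 counts in a library and was not tested.

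Of 11 tested partners of annexin A2 and S100A10, 4 were called higher and 2 lower in the EZ at day 3, and 2 higher in the PIZ. All genes gave 16.1% higher and 24.7% in either direction in the EZ, and 7.12% higher in the PIZ. Cd44, the hyaluronan receptor, rose by 3.83 (SE 0.64) in the EZ and 4.63 (SE 0.70) in the PIZ, and Ahnak2, a scaffold protein, rose by 4.82 (SE 0.82) and 4.02 (SE 0.86). Ctsb, which encodes cathepsin B, rose by 1.84 (SE 0.34) in the EZ. The remaining gene called higher was the scaffold gene Ahnak (1.36, SE 0.24). Grm5, a metabotropic glutamate receptor of neurons, fell by 0.86 (SE 0.22) and Htr1b, a serotonin receptor, fell by 2.98 (SE 0.72) there.

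Among 8 partners of S100A4, S100A6 and S100A11, 2 were called higher in the EZ at day 3 and 0 in the PIZ, shares near those of all genes (16.1% and 7.12%). These 2 were Tpm4, a tropomyosin, at 1.89 (SE 0.25) and Myh9, the heavy chain of non-muscle myosin that S100A4 binds, at 1.23 (SE 0.17). Myh10 and Tpm1 were at 0.13 (SE 0.17) and -0.24 (SE 0.13), not called.

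Membrane repair genes had 8 of 13 tested called higher in the EZ at day 3 and 5 in the PIZ, 0 lower on either side, against 16.1% and 7.12% of all genes called higher. Trim72 was at 3.26 (SE 0.51, adjusted p = 3.96e-06) and Myof (myoferlin) at 2.65 (SE 0.61) in the EZ. In the PIZ they were at 1.17 (SE 0.56) and -0.35 (SE 0.59), not called. Capns1, the small subunit of calpain, rose on both sides, by 0.85 (SE 0.14) and 0.73 (SE 0.14), and the other 4 called in the PIZ were Dysf, Capn2, Cav1 and Cavin3. By contrast Chmp4b of the ESCRT-III complex was at 0.11 (SE 0.09) and 0.08 (SE 0.09).

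Receptors for extracellular annexins and S100 proteins were mostly scarce. Fpr1, Fpr2 and Fpr3, the formyl peptide receptors that bind annexin A1, had at most 7, 8 and 1 counts in a library and were not tested. Of the 3 that were tested, Tlr4 rose by 2.01 (SE 0.37) in the EZ and 1.78 (SE 0.39) in the PIZ at day 3, and Cd36 rose by 2.37 (SE 0.60, adjusted p = 0.00138) in the EZ and was at -0.43 (SE 0.66) in the PIZ. Ager, the receptor for advanced glycation end products, was at 0.97 (SE 0.39) and 0.90 (SE 0.40), not called.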

How the data were processed

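The deposited values are raw counts per gene, which the authors obtained with fastp 0.20.1 (trimming), HISAT2 2.2.1 (alignment to GRCm39) and featureCounts of Subread 1.6.4 (by strand), without normalization. The authors' own tests used DESeq2 1.32.0. Everything here was computed from the counts with edgeR 4.0.16 in R 4.3.3: filterByExpr, TMM scaling, and a quasi-likelihood fit of 12 group means, with adjustment over all 21390 genes kept. Library totals were 17762656 to 25712975 counts. An SE is the log2 fold change divided by the square root of F. The model was tested on simulated data of 20945 genes for the EZ at day 3, where 66 of 100 genes changed 2-fold and 88 of 100 changed 4-fold were called. The changed genes were drawn from those with a mean of at least 10 counts. All other genes were left unchanged, and each gene had the same dispersion in all groups. These rates hold for that setting, which differs from the data, where 24.7% of genes were called. Identifiers were matched to Gencode M39 (98.90%). The members, gene lists and tests were chosen with earlier results of these data known. Named genes are the members, the 2 genes of highest CPM in each list, the 2 called genes with the largest changes in the EZ at day 3 in each family and partner list, and the 2 nearest genes to each member by correlation. Genes outside this rule were named after their values were seen: S100a8, S100a9, S100a1, S100a13, Ager, Fpr1 to Fpr3, Plg, Plat, Serpinf2, Ahnak, Htr1b, Dysf, Capn2, Cav1, Cavin3, Cd3e, Cd3g, Trac, the untested annexins and the called endothelial and meningeal markers. So were the promoter motifs. Some genes that this rule names are not reported here. The 2 sides of a mouse come from the same animal. Their residuals correlated between -0.054 and 0.376, and over 0.1 in 20 of 24 mice. Alternatives were DESeq2 1.42.0, RLE factors, library size only, other filters, modelling only the compared groups, mouse as a block and leaving out each mouse.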

Additional observations from a re-analysis of the deposited data

Results flagged for a closer look

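The 4 values of each of the 10 transcripts in each of the 12 groups (120 sets) were searched for 1 mouse far from the other 3, which by chance alone would flag about 1 set in 20, and 16 sets were flagged. Of these, 9 are the EZ library of kainate mouse 27 at day 14, which had 1.86 CPM of Anxa1, 66.6 of Anxa2, 82.1 of Anxa3, 21.8 of Anxa4, 132.5 of Anxa5, 31.5 of S100a4, 66.9 of S100a6, 44 of S100a10 and 22.1 of S100a11. The PIZ library of the same mouse was flagged for Anxa4 (6.16 CPM) and S100a6 (13.8 CPM). The others were Anxa2 in the kainate PIZ at day 7 (9.78 CPM, mouse 26), Anxa3 in the saline PIZ at day 7 (11.1 CPM, mouse 89) and at day 14 (9.64 CPM, mouse 39), Anxa7 in the saline PIZ at day 14 (90.5 CPM, mouse 39) and S100a11 in the saline EZ at day 7 (2.78 CPM, mouse 33).

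The kainate effect differed between the sides at day 7 for 5 transcripts by the test of the difference itself (edgeR): Anxa2 (2.59 on the log2 scale), Anxa3 (2.46), Anxa5 (1.64), S100a6 (2.28) and S100a11 (2.53), each larger in the EZ, where 9.89% of all genes were called. No member was called without kainate mouse 21 or 35 or saline mouse 89 or 20.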

How the results depend on the processing

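The 41 calls of single members kept their direction in every alternative run. All 41 were kept with RLE factors, with library size only, with a mean of at least 10 counts and by DESeq2. Without a filter 3 were lost, and with only the compared groups modelled 11 were lost. Leaving out 1 mouse at a time lost 79 calls and kept 237. For Anxa7 in the EZ at day 14 the estimate changed sign, between -0.09 and 0.08 over the 8 mice left out. With mouse as a block, all 8 calls of comparisons between sides were kept, and the number called moved from 5 to 7 for the difference between sides at day 7 and from 3 to 5 for kainate EZ against kainate PIZ at day 3. The block changed no count of the other comparisons between sides, and the remaining comparisons were not run with it. With only the compared groups modelled, the number of members called was 0 for the EZ at day 14, 3 for the PIZ at day 7, 4 for the change in the PIZ from day 3 to day 7, and 0 for kainate EZ against PIZ at day 3. For the EZ at day 14, DESeq2, RLE factors, no filter and a mean of at least 10 counts each called 8, adding Anxa2. DESeq2 called 2 for the change in the PIZ, 2 for saline EZ against PIZ at day 3 and 5 for kainate EZ against PIZ at day 3. Leaving out 1 mouse gave 0 to 8 for the EZ at day 14, 0 to 7 for the difference between sides at day 7, 0 to 8 for the change in the EZ from day 7 to day 14, and 0 to 3 for kainate EZ against PIZ at day 3. A setting that leaves out a mouse or a group also changes the genes tested and the residual degrees of freedom, and the cause of each change was not tested. The shares of all genes called in these alternative runs are not reported here. Anxa1 is limited by depth, with 2 to 17 counts per saline library.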
